A study of Mus musculus with 14 samples.

Results

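Metallothioneins are small cysteine-rich proteins that bind zinc and copper, and 3 of their genes, Mt1, Mt2 and Mt3, are described here across 3 stages of medulloblastoma, a cerebellar tumor. They were chosen by name: 3 of the 8251 genes with a symbol of their own, each with 1 probe set (93573_at for Mt1, 101561_at for Mt2 and 95340_at for Mt3) of 12422 in all. RNA of 14 samples of mouse cerebellar cells was measured, 1 array per sample, and all mice were patched+/-, that is, heterozygous for Ptch1, the receptor that restrains hedgehog signalling. The GCP group (n = 4) is of granule cell precursors, whose divisions yield the cerebellar granule neurons, taken at an age of 7 days. Preneoplastic cells (pretumor, n = 5) were taken at 6 weeks. Tumor cells (n = 5) were taken at 10 to 25 weeks, once mice had signs of medulloblastoma. Stage and age therefore cannot be told apart.

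The cells came from papain and DNase digests of cerebellum, were banded between 35% and 65% Percoll and were not sorted, so every sample may hold several cell types. The labels also describe a cross to Math1-GFP mice and do not say whether it supplied any of the arrays. The labels do not say whether arrays of a group hold RNA of different animals; the p-values reflect the spread among these samples, which may be technical. The granule lineage factors Neurod1 and Zic1 were strongly detected in all groups, with group means of log2 intensity of 12.83, 11.45 and 11.58 for Neurod1 and 12.74, 12.59 and 12.64 for Zic1 in GCP, pretumor and tumor samples. Of 16 measured granule lineage genes, limma called 0 higher and 3 lower than GCP in pretumor samples, and the same in tumor samples. These were Neurod1 (adjusted p = 0.00706 and 0.0109), Pax6 (0.0108 and 0.00214) and Cbln1 (0.00819 and 0.00946). Over all probe sets 2.69% and 3.19% were called lower, at an adjusted p under 0.05. Atoh1, which defines precursors, read 1.95, 1.90 and 2.01. These Atoh1 readings lie in the low band, the name used here for intensities below 16 (log2 below 4), where 70.5% of all values fell. Whether a low-band reading reflects little RNA or a weak probe set cannot be told from these values. Pairs of arrays within a group correlated at r of 0.983 to 0.998. GCP 1 with GCP 2 and GCP 3 with GCP 4 formed pairs, and pretumor 3 and tumor 2 had been found farthest from their groups in an earlier analysis of these data, so results are also given without these arrays or with the pairs averaged. With the pairs averaged, the granule lineage genes called lower than GCP were 0 in pretumor and 1 in tumor samples.

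In brain, Mt1 and Mt2 are known chiefly from astrocytes and are switched on by zinc, cadmium, glucocorticoids, cytokines and oxidative stress. The zinc sensor Mtf1 drives them through metal response elements in their promoters. Mt3 is known as a brain metallothionein of neurons and astrocytes that responds little to metals. In mouse these genes lie side by side on chromosome 8 in the order Mt4, Mt3, Mt2, Mt1.

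The promoters are shown because they differ in how often the metal response element core occurs. The order of group means does not set Mt1 and Mt2 apart, since Mt3 shared it. Each window is the + strand of GRCm38.p6 from 250 bases before to 50 bases after the start in the RefSeq promoter table, at chr8:94178839-94179138 for Mt1, chr8:94172368-94172667 for Mt2 and chr8:94152357-94152656 for Mt3. Capitals mark matches to the core, searched as TGCACNC and TGCGCNC on both strands.
Mt1: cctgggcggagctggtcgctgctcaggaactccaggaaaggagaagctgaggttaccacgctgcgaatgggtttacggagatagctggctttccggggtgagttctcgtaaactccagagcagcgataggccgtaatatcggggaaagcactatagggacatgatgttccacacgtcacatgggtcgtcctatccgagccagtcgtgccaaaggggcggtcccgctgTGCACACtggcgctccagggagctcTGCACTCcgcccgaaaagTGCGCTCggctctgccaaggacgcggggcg
Mt2: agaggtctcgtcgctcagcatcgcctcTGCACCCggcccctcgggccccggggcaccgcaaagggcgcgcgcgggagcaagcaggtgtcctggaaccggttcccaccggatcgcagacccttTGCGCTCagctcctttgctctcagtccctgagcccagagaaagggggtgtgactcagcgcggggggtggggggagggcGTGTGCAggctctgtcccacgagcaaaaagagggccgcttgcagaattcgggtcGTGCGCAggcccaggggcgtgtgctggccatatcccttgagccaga
Mt3: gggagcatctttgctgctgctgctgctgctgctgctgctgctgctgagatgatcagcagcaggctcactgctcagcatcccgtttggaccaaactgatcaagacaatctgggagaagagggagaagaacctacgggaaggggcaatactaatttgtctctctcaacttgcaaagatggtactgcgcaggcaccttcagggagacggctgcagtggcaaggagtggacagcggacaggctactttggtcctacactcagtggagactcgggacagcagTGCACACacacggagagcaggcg
The Mt1 window held 3 matches, the Mt2 window 4 and the Mt3 window 1. Of 32851 mouse promoter windows of this length, 25.7% held at least 1 match, 1.97% at least 3 and 0.517% at least 4. The start used for the Mt1 window lies 206 bases inside the annotated Mt1 gene, while for Mt2 and Mt3 it is the first base of the gene, so the Mt1 count and positions hold for that start alone. Counting the start base as 0, the Mt1 matches began at -23, 2 and 20, the Mt2 matches at -223, -128, -50 and 4, and the Mt3 match at 27. An antioxidant response element core, searched as TGACNNNGC on both strands, occurred once in the Mt2 window, at -79, apart from the capitals, and in neither the Mt1 nor the Mt3 window. Such a core was present in 12.4% of all windows. These matches describe letters only, and binding was not measured.

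Mt2 was the 1 metallothionein gene of the 3 with a called difference: it was lower in tumor than in preneoplastic cells. Its intensity was 80.8, 74.0, 83.6 and 97.9 in GCP 1 to 4. It was 182, 194, 108, 139 and 101 in pretumor 1 to 5, and 52.9, 83.8, 67.8, 45.1 and 50.2 in tumor 1 to 5. Every pretumor array was higher than every GCP array and every tumor array, while GCP and tumor arrays overlapped through tumor 2.

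**Figure D1:**
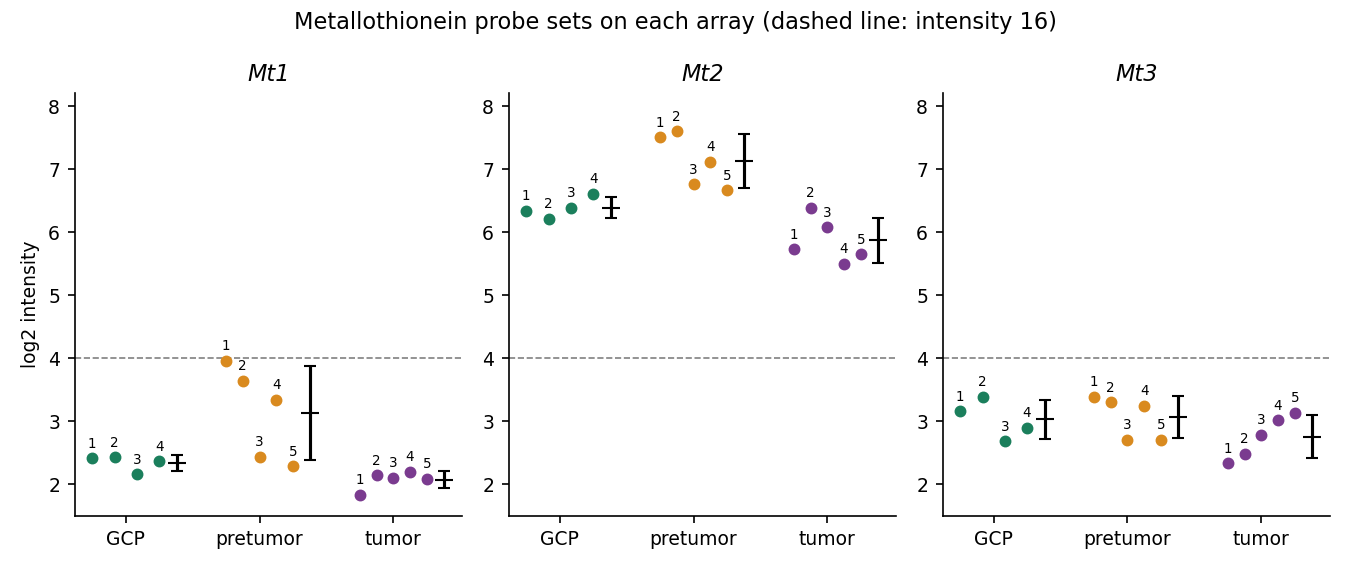
Log2 intensity of Mt1, Mt2 and Mt3 on each of the 14 arrays (points, numbered by replicate), with group mean ± SD in black. Mt2 lay above the low band (dashed line at log2 4) on every array and was highest in the pretumor group, whereas Mt1 and Mt3 stayed below the line throughout.

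The group means of Mt2 were 6.39 ± 0.17 in GCP (log2, SD, n = 4), 7.13 ± 0.42 in pretumor (n = 5) and 5.87 ± 0.36 in tumor samples (n = 5). Tumor cells were compared with preneoplastic cells to ask how the tumor differs from the stage before it. Mt2 was 2.40-fold lower in tumor than in pretumor samples, a log2 difference of -1.26 (SE 0.21, 95% interval -1.72 to -0.80, limma adjusted p = 0.0166). In this comparison limma called 0.998% of the 12422 probe sets at an adjusted p under 0.05, 0.209% as higher and 0.789% as lower in tumor. Groups that do not overlap, with tumor lower, were found for 1.61% of probe sets, and Mt1 and Mt2 were both among them. Mt2 was the 52nd probe set by p-value, and its change was larger in size than that of 99.2% of probe sets. That share counts all 12422, with 70.5% of all values in the low band, and none is given for probe sets above it. In bulk samples fewer cells of a type and less RNA per cell cannot be told apart. The call was kept without pretumor 3 and tumor 2 (difference -1.48, adjusted p = 0.00945) and with the GCP pairs averaged (-1.26, adjusted p = 0.0472). It ended when only these groups were fitted (-1.26, adjusted p = 0.0823).

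Pretumor cells were compared with GCP to ask how the preneoplastic stage differs from early postnatal precursors of the same genotype. Mt2 was 1.67-fold higher in pretumor samples on average, by 0.74 on the log2 scale (SE 0.22, interval 0.25 to 1.23), and this did not pass (limma adjusted p = 0.0961). Groups that do not overlap in this direction were found for 4.65% of probe sets. The adjusted p fell to 0.049 without pretumor 3 and tumor 2, to 0.0418 when only probe sets reaching 16 on at least 4 arrays were tested and to 0.00316 with array weights, and rose to 0.419 with the GCP pairs averaged. In tumor against GCP the Mt2 difference was -0.52 (SE 0.22, interval -1.01 to -0.03, adjusted p = 0.287). The order of the Mt2 means was thus pretumor, GCP, tumor, and neither neighbouring pair in this order passed the test.

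Mt1 had the same order of means but read in the low band everywhere. Its intensity was 5.33, 5.38, 4.45 and 5.13 in GCP 1 to 4, 15.6, 12.5, 5.41, 10.1 and 4.86 in pretumor 1 to 5, and 3.56, 4.40, 4.29, 4.58 and 4.24 in tumor 1 to 5. Pretumor 1, 2 and 4 were high, and pretumor 3 and 5 lay near the GCP arrays. Pretumor and tumor arrays did not overlap, with pretumor 5 only just above tumor 4. Because every array was below 16, no linear fold is given for Mt1, and its log2 differences compare low-band readings whose size depends on how low values are treated.

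Mt1 group means were 2.34 ± 0.13, 3.13 ± 0.74 and 2.07 ± 0.14 (log2, SD). The difference was -1.06 in tumor against pretumor (SE 0.28, interval -1.67 to -0.45, limma adjusted p = 0.13), and 0.79 in pretumor against GCP (SE 0.30, interval 0.14 to 1.44, adjusted p = 0.196). It was -0.27 in tumor against GCP (SE 0.30, interval -0.92 to 0.38, adjusted p = 0.804). None passed the test. With 16 added to every value before log2, the tumor against pretumor difference was -0.33 (adjusted p = 0.204). Without pretumor 5 the tumor against pretumor difference was -1.27 and passed (adjusted p = 0.0422). The pretumor SD of Mt1 was several times that of the other groups. Its spread around the group means (SD 0.46 over all 14 arrays) was wider than that of 93.7% of all probe sets, those in the low band included. The shares were 87.4% for Mt2 and 85.7% for Mt3.

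Mt3 showed no called difference between stages. Its intensity was 8.90, 10.5, 6.42 and 7.43 in GCP, 10.5, 9.85, 6.52, 9.46 and 6.54 in pretumor, and 5.03, 5.60, 6.90, 8.07 and 8.80 in tumor samples, in order of replicate. All groups overlapped and all arrays lay in the low band. Means were 3.03 ± 0.31, 3.07 ± 0.33 and 2.75 ± 0.34, again highest in pretumor and lowest in tumor samples. The limma differences were 0.04 for pretumor against GCP (interval -0.43 to 0.51, adjusted p = 1), -0.28 for tumor against GCP (interval -0.74 to 0.19, adjusted p = 0.656) and -0.32 for tumor against pretumor (interval -0.76 to 0.12, adjusted p = 0.619). The first of these changed sign under 6 of 25 alternatives, with values of -0.23 to 0.16.

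**Figure D2:**
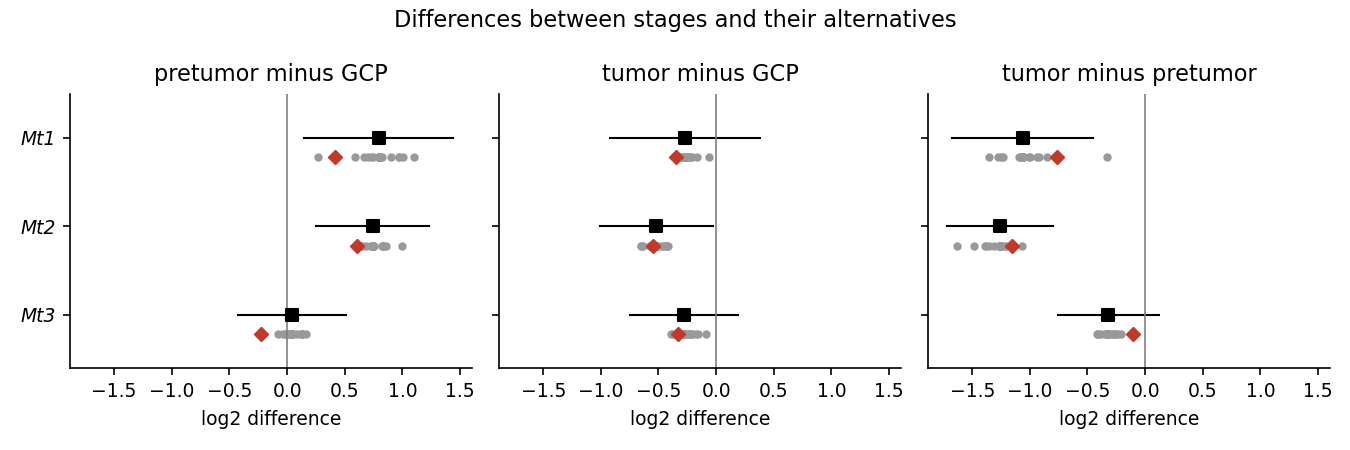
Log2 difference of each gene in the 3 comparisons (black squares, with 95% intervals), and below each the values under the alternatives (grey points; the red diamond has the Gapdh ratio as a covariate). For Mt2 in tumor against pretumor all 27 alternatives lay between -1.63 and -1.07, while Mt3 in pretumor against GCP fell on both sides of 0.

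Variation among arrays of the same group differed between the 3 genes. It was set against the Gapdh control's 3' signal over its 5' signal, as a log2 ratio, a measure of RNA integrity and labelling. That ratio ran from -0.018 to 0.56 in GCP, from 0.0056 to 1.08 in pretumor and from 0.15 to 0.42 in tumor samples. The arrays with high Mt1, pretumor 1, 2 and 4, had the 3 highest ratios of all 14, 0.79, 1.08 and 0.85.

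Correlations were computed on deviations from group means over the 14 arrays, with exact two-sided permutation within groups, for 6 relations. Mt3 followed the Gapdh ratio (Pearson r = 0.80, exact p = 0.0016, adjusted 0.0048; Spearman rho = 0.72, exact p = 0.00383, adjusted 0.0139), and r was 0.80 without pretumor 2 and pretumor 3, the arrays farthest from the median. Mt1 had r = 0.80 with the ratio (exact p = 0.03, adjusted 0.06) and rho = 0.85 (exact p = 0.00462, adjusted 0.0139), with r = 0.68 (exact p = 0.0595) without the same arrays. For Mt2 the relation was not called, at r = 0.38 (exact p = 0.286, adjusted 0.343) and rho = 0.26 (exact p = 0.416, adjusted 0.499), and r was 0.03 without those arrays. The median r with the ratio over 2996 genes above the low band was -0.10, and 4.00% of them exceeded 0.7. The GCP arrays fall into pairs and the pretumor arrays into high and low ratios, so the arrays may not be independent and these p-values are to be read with that limit.

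Mt1 and Mt3 varied together (r = 0.72, exact p = 0.000486, adjusted 0.00292; rho = 0.71, exact p = 0.00835, adjusted 0.0167), and r was 0.67 without pretumor 1 and pretumor 5. This was not particular to the pair. Placed among 2996 genes above the low band, Mt3 stood 41st by r with Mt1, and Mt1 190th by r with Mt3. Mt1 with Mt2 gave r = 0.69 (exact p = 0.0431, adjusted 0.0646) and rho = 0.48 (exact p = 0.159, adjusted 0.238), and without pretumor 1 and pretumor 5 r was 0.54 (exact p = 0.216). Mt2 with Mt3 gave r = 0.14 (exact p = 0.662, adjusted 0.662) and rho = 0.06 (exact p = 0.85, adjusted 0.85), and r = 0.25 without pretumor 2 and tumor 2.

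**Figure D3:**
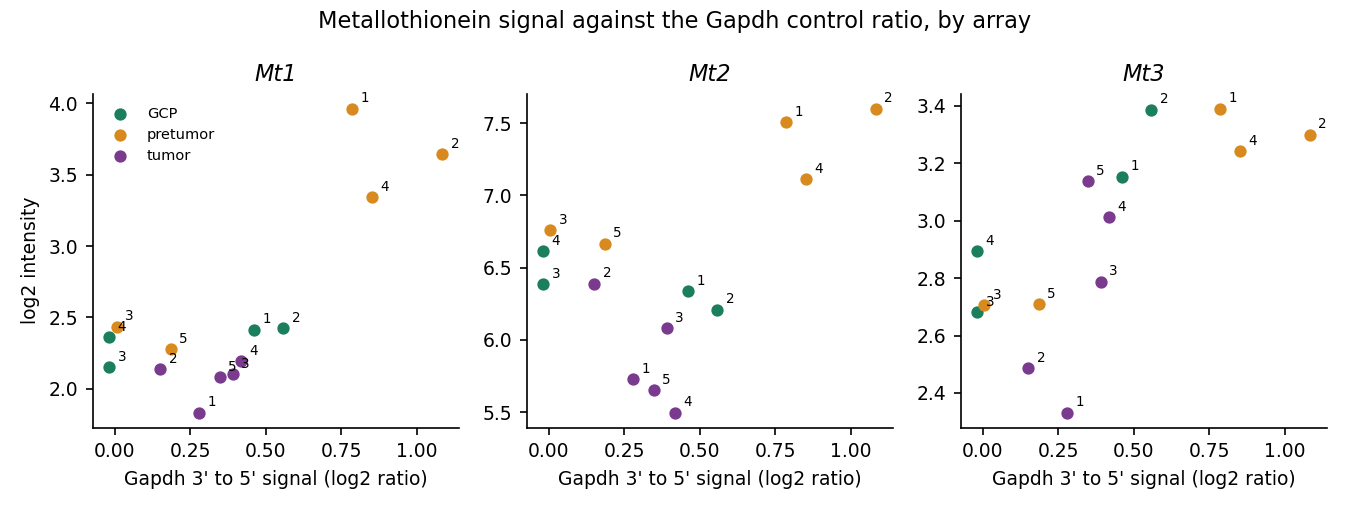
Log2 intensity of each gene (vertical, own scale per panel) against the Gapdh 3' over 5' log2 ratio (horizontal), 1 point per array, numbered by replicate and coloured by group. Pretumor 1, 2 and 4 combine the highest ratios with the highest Mt1 and Mt2 signals, while tumor arrays have low Mt2 at middle ratios.

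With the Gapdh ratio as a covariate, an alternative added after seeing the data, Mt2 remained lower in tumor than in pretumor samples, by -1.16 (SE 0.22, adjusted p = 0.0339). Its difference in pretumor against GCP became 0.61 (adjusted p = 0.155). For Mt1 the same covariate moved pretumor against GCP from 0.79 to 0.42 (adjusted p = 0.251) and tumor against pretumor from -1.06 to -0.77 (adjusted p = 0.0725). Mt3 in pretumor against GCP turned from 0.04 to -0.23 (adjusted p = 0.38).

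Among 2995 other genes above the low band, those whose deviations were most like those of Mt2 were Bcap31 (r = 0.83), S100a13 (0.83), Hspb2 (0.78), Ndrg1 (0.75) and Tpgs2 (0.75), over 14 arrays on which all genes share the labelling and RNA quality of their array. Ndrg1, a gene known to rise in hypoxia, also shared the order of group means, at 5.60 ± 0.12, 7.50 ± 0.52 and 5.36 ± 0.71. Its difference in tumor against pretumor was -2.14 (limma adjusted p = 0.00838), and this call ended with the compared groups fitted alone (adjusted p = 0.0662). A second Ndrg1 probe set gave -1.39 (adjusted p = 0.0716). S100a13, a small calcium-binding protein, had the same order, at 5.08 ± 0.18, 5.19 ± 0.45 and 4.46 ± 0.39, and was not called (adjusted p = 0.194). Bcap31 had it too, at 5.13 ± 0.09, 5.14 ± 0.23 and 4.95 ± 0.10, with GCP and pretumor means nearly equal. Hspb2 and Tpgs2 had other orders. For Mt3 the closest were Atpif1 (r = 0.94), Txn2 (0.93) and Ptpa (0.93). These had r of 0.69, 0.73 and 0.87 with the Gapdh ratio. For Mt1 the closest was Mrpl28 (r = 0.85), which had r = 0.71 with that ratio. Of the 5 genes listed for Mt2, r with the ratio ran from 0.18 for Hspb2 to 0.59 for Tpgs2.

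No measured gene next to the cluster was called in tumor against pretumor. Mt4, a metallothionein of squamous epithelium, read in the low band at 1.68 ± 0.05, 1.57 ± 0.04 and 1.64 ± 0.06 and was not called (limma adjusted p = 0.0883 for pretumor and 0.702 for tumor, each against GCP, and 0.401 between those stages). Of the 8 protein-coding genes that flank the cluster, 4 on each side, 4 were measured. Tumor against pretumor differences were 0.28 for Nudt21, 0.08 for Nup93, 0.05 for Slc12a3, which lay in the low band, and -0.49 for Herpud1 (limma adjusted p = 0.469), none of them called. Herpud1, an endoplasmic reticulum stress gene, read 7.06 ± 0.19 in GCP and rose to 8.13 ± 0.38 at the pretumor stage (adjusted p = 0.0323). That call ended under 11 of 27 alternatives, among them without any 1 GCP array and without pretumor 2, 3, 4 or 5. Whether Mt2 differed from its neighbours was not tested.

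Genes of metal handling were counted as a description, to be read beside the shares called over all probe sets. Those shares are for the adjusted threshold. None is given at an unadjusted p under 0.05, so unadjusted counts of this and later lists cannot be set against one. Among zinc transporters and Mtf1, 13 of 24 listed genes were measured, 4 of them in the low band. In tumor against pretumor 0 rose and 0 fell at the limma threshold (1 and 0 at an unadjusted p under 0.05), and the median difference was 0.04, against 0.01 over all probe sets. Mtf1 itself read 2.02, 2.01 and 2.06, in the low band, and Slc30a1, the zinc exporter known as an Mtf1 target, read 4.10 ± 0.24, 4.19 ± 0.39 and 4.26 ± 0.13 (adjusted p of 0.825 to 0.94). Slc39a8, a zinc importer, fell from 5.33 ± 0.23 in GCP to 2.73 ± 0.16 in pretumor and 2.63 ± 0.13 in tumor samples (adjusted p = 1.61e-07 and 1.05e-07), and was the 1 list member lower in pretumor than GCP, where 4.36% of all probe sets were called, 1.67% as higher and 2.69% as lower. In tumor against GCP, with 4.6% of probe sets called, 1.41% as higher and 3.19% as lower, Slc39a8 fell and Slc39a6, another importer, rose from 8.64 ± 0.15 to 9.48 ± 0.26 (adjusted p = 0.0466). The Slc39a6 call ended under 15 of 27 alternatives, among them without any 1 GCP or tumor array and without pretumor 2, 4 or 5.

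Of the copper and iron list, 16 of 23 genes were measured, 10 of them in the low band, and limma called 0 in each comparison (at an unadjusted p under 0.05, 0 higher and 1 lower in pretumor and 1 higher and 2 lower in tumor, each against GCP, and 2 higher and 0 lower between those stages). Fth1, the ferritin heavy chain, read 12.14 ± 0.10, 12.11 ± 0.12 and 11.95 ± 0.30. Of 36 measured glutathione and antioxidant genes, 2 rose and 3 fell in pretumor against GCP, 1 rose and 3 fell in tumor against GCP, and 0 rose and 3 fell in tumor against pretumor. With the GCP pairs averaged the calls were 1 higher and 0 lower, 0 higher and 2 lower, and 0 higher and 2 lower. The medians of this list were -0.03, -0.04 and -0.02. Gsto1, an omega-class glutathione transferase, fell by 2.71 on the log2 scale from pretumor to tumor, from 6.76 ± 0.48 to 4.05 ± 0.42 (adjusted p = 4e-04).

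Txnip, an inhibitor of thioredoxin, was highest in the pretumor group, as was Mt2, but was lowest in GCP rather than in tumor samples. It rose from 5.46 ± 0.46 in GCP to 7.72 ± 0.50 in pretumor samples (adjusted p = 7e-04), and stood at 6.44 ± 0.27 in tumor samples. The tumor against pretumor call of Txnip (adjusted p = 0.0389) ended under 16 of 27 alternatives, among them without any 1 tumor array and without GCP 2 or 3 or pretumor 1, 2, 4 or 5. Mgst3, a microsomal glutathione transferase, fell from 9.59 ± 0.12 in GCP to 8.15 ± 0.58 in pretumor and 7.66 ± 0.39 in tumor samples (adjusted p = 0.0115 and 0.00168); the pretumor call ended with the GCP pairs averaged (adjusted p = 0.124).

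Genes tied to glucocorticoids and cytokines, other known inducers of Mt1 and Mt2, were counted in the same way. Of 19 measured members of the glucocorticoid receptor and target list, 11 in the low band, 0 were called in pretumor against GCP and 0 in tumor against pretumor (5 higher and 1 lower, and 1 higher and 1 lower, at an unadjusted p under 0.05). Medians were 0.17 and 0.10, against -0.01 and 0.01 over all probe sets. The mean log2 intensity over the list was 4.27 ± 0.05 for GCP, 4.53 ± 0.05 for pretumor and 4.65 ± 0.21 for tumor arrays. A shift of the list was not tested. The counts at the adjusted threshold are near the shares called over all probe sets, and no such share is given for the unadjusted counts. With the compared groups fitted alone, 3 of the 19 rose and 0 fell in pretumor against GCP. In tumor against GCP 1 rose, Cebpd, from 4.77 ± 0.43 to 7.10 ± 1.29 (adjusted p = 0.0283), a call that ended under 8 of 27 alternatives, also without GCP 1, GCP 2, GCP 4 or tumor 2. Of 23 measured genes of the interleukin 6 family and Stat3 list, 15 in the low band, 1 fell in pretumor against GCP and in tumor against GCP, and 0 were called in tumor against pretumor (4 at an unadjusted p under 0.05, all higher). That gene was Lifr, a cytokine receptor, which read 3.00 ± 0.27, 2.08 ± 0.10 and 2.40 ± 0.30, within the low band (adjusted p = 0.00564 and 0.0461); the tumor call ended under 19 of 25 alternatives, and it was kept without GCP 1 or tumor 3. The pretumor call ended with the GCP pairs averaged (adjusted p = 0.052).

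Among 14 measured heat shock genes, 4 in the low band, 9 rose and 0 fell in pretumor against GCP. In tumor against GCP 5 rose and 0 fell. Over all probe sets, 1.67% and 1.41% were called higher in these comparisons. In tumor against pretumor 0 heat shock genes were called (0 higher and 4 lower at an unadjusted p under 0.05). With the GCP pairs averaged the rises were 5 and 2. Bag3, a heat-induced co-chaperone, read 5.82 ± 0.28, 8.99 ± 0.60 and 7.87 ± 0.74, while its other, low-band probe set was called lower in tumor than pretumor samples (-1.08, limma adjusted p = 0.00623). The list also held Hsph1, a chaperone, at 10.14 ± 0.16, 11.92 ± 0.28 and 11.40 ± 0.61. Of 19 measured immediate early genes, 5 in the low band, 4 rose in pretumor and 7 in tumor against GCP. In tumor against pretumor 1 rose, where 0.209% of all probe sets were called higher. With the GCP pairs averaged the rises against GCP were 2 and 5. Klf4, a transcription factor of this list, read 7.09 ± 0.61, 9.13 ± 0.71 and 10.63 ± 0.39.

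**Figure D4:**
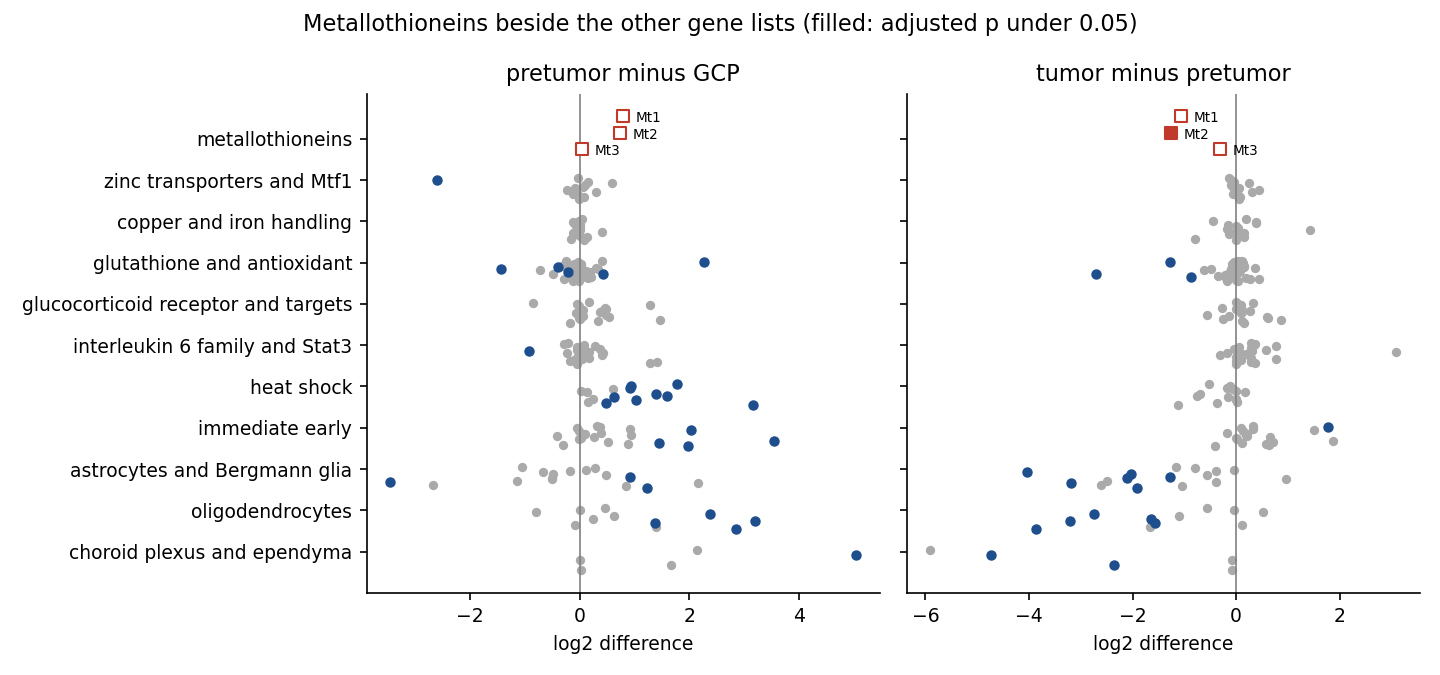
Log2 difference of the metallothioneins (red squares) and of every measured gene of 10 lists (points, spread vertically for legibility) in pretumor minus GCP (left) and tumor minus pretumor (right). Filled red or blue marks passed an adjusted p under 0.05. In the right panel Mt2 and the called genes of the glutathione, astrocyte, oligodendrocyte and choroid plexus lists lay below 0. The 1 called immediate early gene lay above 0, and the zinc list held no called gene.

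Some markers of astrocytes, oligodendrocytes and choroid plexus were lower in tumor than in pretumor samples, as was Mt2, and their part in the Mt2 difference was not tested. In tumor against pretumor 0.209% of all probe sets were called higher and 0.789% lower. Of 16 measured astrocyte and Bergmann glia markers, 5 in the low band, 0 rose and 6 fell in that comparison. The median difference was -1.22, and the summed intensity of the list ran from 12863 to 17027 in GCP, from 2829 to 7564 in pretumor and from 1458 to 3515 in tumor samples. That sum is dominated by the brightest marker, Fabp7, and the mean log2 intensity over the list was 6.45 ± 0.18 for GCP, 6.16 ± 0.19 for pretumor and 4.72 ± 0.52 for tumor arrays. In pretumor against GCP 1.67% of all probe sets were called higher and 2.69% lower. There 2 of the list's members rose and 1 fell, and the members differed in their order of groups. Some were highest in GCP. Aqp4, the astrocyte water channel, read 9.19 ± 0.79, 6.52 ± 0.40 and 3.91 ± 1.82, and Ptprz1, a glial phosphatase, 7.85 ± 0.25, 7.19 ± 0.10 and 3.16 ± 1.20. Fabp7, a radial glial fatty acid binding protein, read 13.24 ± 0.22, 9.78 ± 0.40 and 9.40 ± 0.85.

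Other astrocyte markers, named after their values were seen, had the order of means of Mt2. Clu, the secreted chaperone clusterin, read 4.15 ± 0.79, 6.31 ± 0.65 and 3.12 ± 1.12 and fell from pretumor to tumor (limma adjusted p = 0.0169). The Clu call ended without pretumor 1, without tumor 4 and with the compared groups fitted alone (adjusted p up to 0.0632). Aldoc, a glycolytic aldolase, read 2.44 ± 0.16, 3.67 ± 0.38 and 1.75 ± 0.09, and Gjb6, a gap junction protein, 1.76 ± 0.27, 2.68 ± 0.17 and 1.41 ± 0.14, all in the low band. Both rose from GCP to pretumor (adjusted p = 0.00138 and 0.00169) and fell from pretumor to tumor samples (adjusted p = 0.000267 and 4e-04). Each of these Aldoc calls ended with a floor at 16. The Gjb6 calls were kept under the 25 alternatives that gave a value.

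The summed intensities of the oligodendrocyte and choroid plexus lists were highest in the pretumor group, though not every member peaked there. Of 11 measured oligodendrocyte markers, 5 in the low band, 4 rose in pretumor against GCP and 5 fell in tumor against pretumor. The shares called in these directions over all probe sets were 1.67% and 0.789%. Pdgfra, of the same list, was lowest in the pretumor group, at 6.11 ± 0.22, 5.31 ± 0.53 and 5.82 ± 0.32. Their summed intensity was 276 to 407 in GCP, 764 to 1533 in pretumor and 159 to 306 in tumor samples. Car2, a carbonic anhydrase, read 6.49 ± 0.25, 9.33 ± 0.51 and 5.47 ± 1.01, and the myelin genes Mal and Mog read 6.57 ± 0.99 and 5.12 ± 0.64 in pretumor samples but lay in the low band in the other groups. With the GCP pairs averaged, 1 marker rose and 4 fell.

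Over all probe sets 1.67% were called higher in pretumor than GCP and 0.789% lower in tumor than pretumor samples. Of 5 measured choroid plexus and ependyma markers, 2 in the low band, 1 rose in pretumor against GCP and 2 fell in tumor against pretumor. Their summed intensity was 626 to 3213, 5149 to 14525 and 21.6 to 1157 in GCP, pretumor and tumor samples. That sum is dominated by the brightest marker, Ttr, which read 10.77 ± 1.05, 12.92 ± 0.63 and 7.01 ± 3.37. Ttr was not called (limma adjusted p = 0.544 for pretumor against GCP and 0.0612 for tumor against pretumor). Kl, which encodes klotho, read 7.08 ± 1.40 in pretumor samples and lay in the low band in the others. Folr1, a folate receptor, fell from 4.52 ± 1.20 to 2.16 ± 0.06 (adjusted p = 0.0335), a call that ended under 16 of 26 alternatives, among them without any 1 tumor array and without GCP 2, 3 or 4 or pretumor 2 or 3.

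The calls of the other marker lists in tumor against pretumor were as follows: 0 rose and 1 fell of 15 meningeal and fibroblast genes, 1 rose and 0 fell of 15 microglial genes, 0 of 12 endothelial genes, 0 of 16 granule lineage genes, 0 rose and 1 fell of 9 Purkinje and interneuron genes, and 0 of 5 red blood cell genes. Over all probe sets 0.209% were called higher and 0.789% lower. The meningeal gene was Ptgds, at 5.43 ± 0.87, 8.82 ± 0.28 and 4.56 ± 0.85 (limma adjusted p = 0.000595). The Purkinje and interneuron gene was Calb1, at 2.80 ± 0.97, 4.26 ± 1.02 and 1.92 ± 0.15 (adjusted p = 0.0489). Both had the order of means of Mt2. With the GCP pairs averaged, 1 meningeal and 0 Purkinje and interneuron genes fell. At an unadjusted p under 0.05 the lists with no call had 0 higher and 5 lower endothelial genes. The granule lineage list had 1 higher and 2 lower, and the red blood cell list 0 higher and 2 lower. No share of all probe sets is given at that threshold.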

How the data were processed

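RNA of 14 samples was measured on 1 array each. The deposited series matrix gives 1 intensity per probe set on a linear scale; the sources used here do not give how the authors summarised and normalised it. Array medians of 4.12 to 4.39 left no further scaling. After 66 control probe sets were set aside, the other 12422 had values below 2.46, the 10th percentile of the table, raised to it, and log2 was taken. Symbols came from the array's annotation, with 10833 probe sets having 1 symbol, 396 several and 1193 none. limma 3.58.1 in R 4.3.3 fitted 3 group means, with 11 residual and 0.83 prior degrees of freedom, with two-sided tests and Benjamini-Hochberg adjustment over all 12422. The fit was tested on simulated data. Errors are SD unless given as SE. Arrays have no read depth; their number limits the precision.

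The members and the 16 gene lists were chosen with earlier results of these data known. A gene of a list is represented by its probe set with the highest mean. Named are the members, up to 3 called genes per list with the largest change (otherwise the list's highest mean), the genes most like each member, and measured neighbours; not all are printed. Neurod1, Zic1, Atoh1, Mtf1, Slc30a1, Aldoc, Gjb6 and Clu were added. For Mt1 and Mt2, which are close relatives, cross-hybridisation cannot be told from these values. Promoter sequences and gene order are RefSeq's, build GRCm38.p6. Alternatives changed the floor or pseudocount, the normalization, a filter on low values, the arrays or groups fitted, weights, a replicate block and a Gapdh covariate. Replicate numbers were not taken as pairs: of 13 same-numbered pairs of arrays across groups, 4 had deviations correlated above 0.1. Of 52 differently numbered pairs, 25 did, with r from -0.52 to 0.48.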

Additional observations from a re-analysis of the deposited data

Results flagged for a closer look

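Of 132 group and gene combinations screened (44 of the named genes in 3 groups), 5 held an array far from the rest of its group by Dixon's criterion. Chance alone gives about 1 in 20. None was for Mt1, Mt2 or Mt3. Mt4 was lowest in tumor 2, at 1.54 against 1.66 for the next array, within the low band. Neurod1 was lowest in tumor 2, at 10.78 against 11.63. Slc30a1 was highest in pretumor 3, at 4.86 against 4.18. Lifr was lowest in pretumor 3, at 1.90 against 2.10, and Mrpl28 was lowest in GCP 4, at 8.47 against 8.59. The arrays concerned were tumor 2, pretumor 3 and GCP 4.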

How the results depend on the processing

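Mt2 in tumor against pretumor kept its direction under all 27 alternatives, with differences of -1.63 to -1.07, and its call under 26 (adjusted p of 0.000577 to 0.0823). It lost the call with the compared groups fitted alone (-1.26), where the SE was 0.237 against 0.212 in the main fit. That fit leaves out the GCP arrays, whose Mt2 SD of 0.17 was the smallest (pretumor 0.42, tumor 0.36). The main call therefore draws part of its spread from a tighter group outside the comparison. Whether the spread or the number of arrays ended the call was not tested. Leaving out 1 array gave differences of -1.39 to -1.14. In pretumor against GCP, Mt2 was called at 0.74 with the filter on low values, 1.00 with array weights and 0.84 without pretumor 3 and tumor 2. Mt1 was called with array weights at 1.10 in pretumor against GCP and at -1.35 in tumor against pretumor. Without 1 array, the latter ran from -1.27 to -0.85. Mt3 in pretumor against GCP reversed to -0.23 with the Gapdh covariate, and ran from -0.075 to 0.16 without 1 array; it reversed without GCP 3 (-0.075), GCP 4, pretumor 1, pretumor 2 or pretumor 4. With a floor at 16, Mt1 and Mt3 had no variation and gave no value, and the filter on low values removed them. Without the 2 arrays farthest on the horizontal measure, r fell to 0.54 for Mt1 with Mt2 and to 0.68 for Mt1 with the Gapdh ratio.

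Counts of calls over all probe sets (541 for pretumor and 571 for tumor, each against GCP, and 124 between those stages) were 194, 232 and 32 with a floor at 16, 1508, 998 and 393 with array weights, and 168, 198 and 69 with the GCP pairs averaged. With the compared groups alone tumor against GCP had 335 and tumor against pretumor 50. With the replicate number as a block, tumor against pretumor had 76, and Mt2 there was -1.26 (adjusted p = 0.0495); no call of the 3 genes changed with the block. Without 1 array the counts ran from 331 to 624, 338 to 709 and 70 to 148. The lowest were without GCP 4 in the comparisons with GCP, and tumor against pretumor had 72, 70 and 70 without pretumor 1, pretumor 2 and tumor 4. The cause of these moves was not tested. Of 43 calls of other named genes, 21 were kept under all alternatives, 22 ended under some and 0 reversed. Calls of Pax6, Cbln1, Ptgds and Calb1 were not among these. Readings in the low band limit Mt1 and Mt3.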
